A study of Mus musculus with 31 samples.

Results

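The 9 genes described here code for proteins that break down heme and move, store or release iron. They were chosen by symbol: Hmox1, Blvra and Blvrb (heme breakdown), Slc11a1 and Slc40a1 (metal export), Tfrc (iron uptake), and Fth1, Ftl1 and Ncoa4 (iron storage and its release). All 9 were found among the 24421 gene symbols of the deposited count tables, and all 9 passed the filter on low counts. The cells were taken from Balb/c hearts at an age of 8 to 12 weeks, either after surgery that tied off the left anterior descending coronary artery for good, which causes a myocardial infarction (MI), or in the steady state (SS). No allele or transgene is named in the labels. From each state, 4 sorted populations were sequenced, given here in the order macrophages (labelled as CD11c-negative monocyte-derived cells), moDCs (labelled as CD11c-positive monocyte-derived cells), cDC1 and cDC2. There were 4 libraries in each of the 8 groups, except MI cDC2 with 3. The sources used here do not give the time after surgery, the sex of the mice, or whether a library came from a single heart or from pooled hearts. P-values therefore measure the spread between libraries, which may be partly technical.

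Heme released from dying cells and senescent red cells is opened by heme oxygenase 1 (Hmox1), which yields iron, carbon monoxide and biliverdin, and biliverdin reductases (Blvra, Blvrb) turn biliverdin into bilirubin. The freed iron is either exported through ferroportin (Slc40a1), the only known cellular iron exporter of mammals, or kept in ferritin, a shell built of heavy (Fth1) and light (Ftl1) chains. Macrophages are the cells best known for this recycling, and infarcted heart muscle is a site where they clear dead myocytes and extravasated red cells.

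Iron also acts on several of these mRNAs through a short hairpin, the iron-responsive element, to which iron regulatory proteins bind when iron is scarce. In a 5′ untranslated region (UTR) the bound hairpin blocks translation, and in the 3′ UTR of Tfrc it protects the mRNA from decay, so mRNA counts do not measure this layer for the genes with the 5′ form. The UTRs of all protein-coding transcripts tagged as principal in GENCODE M21 (GRCm38) were searched on the transcript strand. The pattern was the loop letters CAGTGN closed by a 5-base stem that allowed G-T pairs, with a C directly on the 5′ side of the stem. Whether that C was unpaired was not checked. The search gave 7 matches in 4 of the 9 genes. Such a match, in any searched transcript of a gene, was present in the 5′ UTR of 0.118% of 19476 genes and in the 3′ UTR of 0.555% of 20551 genes. The windows are shown because they mark which of the 9 genes carry this known control; each is 30 bases, read 5′ to 3′ on the transcript strand, with the 6 loop letters in capitals.
Slc40a1, 5′ UTR, chr1:45925464-45925493, minus strand: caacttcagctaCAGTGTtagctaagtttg
Ftl1, 5′ UTR, chr7:45459778-45459807, minus strand: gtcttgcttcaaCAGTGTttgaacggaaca
Fth1, 5′ UTR, chr19:9982732-9982761, plus strand: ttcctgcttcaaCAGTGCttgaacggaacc
Tfrc, 3′ UTR, chr16:32631219-32631248, plus strand: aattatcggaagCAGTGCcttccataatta
Tfrc, 3′ UTR, chr16:32631598-32631627, plus strand: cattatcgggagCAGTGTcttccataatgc
Tfrc, 3′ UTR, chr16:32631663-32631692, plus strand: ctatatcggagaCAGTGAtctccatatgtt
Tfrc, 3′ UTR, chr16:32631710-32631739, plus strand: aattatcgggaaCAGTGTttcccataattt
Tfrc held 4 of the 7 matches, all within its 3′ UTR, and Slc40a1, Ftl1 and Fth1 held 1 each in the 5′ UTR. No match in the UTRs searched for Hmox1, Slc11a1, Blvra, Blvrb and Ncoa4 says only that these letters were not in those windows.

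Library depth was 9148624 to 16531349 reads in genes. The sorted labels were checked against marker genes. Itgax, which codes for CD11c, averaged 40.9 ± 15.8 CPM (read counts scaled to a common library total with TMM factors) in MI macrophages and 7.50 ± 2.91 CPM in SS macrophages (SD, n = 4), against 471 ± 62.9 CPM in MI moDCs and 337 ± 93.5 CPM in SS moDCs (n = 4). The cDC1 receptor gene Xcr1 averaged 995 CPM in MI cDC1 and 910 CPM in SS cDC1 and at most 3.53 CPM in the other groups. The lectin gene Cd209a averaged 2394 CPM in MI cDC2 and 2258 CPM in SS cDC2, against 5.79 CPM in MI macrophages and 3.37 CPM in MI cDC1. Of the same cDC2 list, Irf4, Clec10a, Mgl2, Tnip3 and Cd209d were also lower in MI macrophages than in MI cDC2. Sirpa and Itgam were not: they averaged 1639 and 805 CPM in MI macrophages, and 1183 and 749 CPM in MI cDC2. The list summed to 2967 to 3421 CPM in MI moDCs and 5391 to 6326 CPM in MI cDC2. In SS hearts, 11.6% to 16.9% of reads lay outside annotated features in libraries 1 and 4 and 6.42% to 9.26% in libraries 2 and 3. After MI the share was 6.85% to 10.9% in libraries 1 and 4 and 7.89% to 10.9% in libraries 2 and 3. SS libraries 1 and 4 thus lay above every MI library. The infarction effects whose calls depended on which SS pair was used are given below. In bulk libraries, fewer cells of a type and less RNA per cell cannot be told apart.

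After infarction, the gene for the ferritin heavy chain rose in macrophages and moDCs, and the genes for heme oxygenase 1 and for the phagosomal metal exporter Slc11a1 fell in cDC1 and cDC2. The Hmox1 effect in cDC2 differed from that in each of the other 3 cell types. A gene counted as changed at an adjusted p under 0.05 in edgeR's quasi-likelihood test over 13039 genes. In macrophages 3 of the 9 genes changed (Fth1 up, Slc40a1 and Blvrb down), where 7.39% of all genes tested did. In moDCs 1 of 9 changed (Fth1 up) beside 4.84% of all genes. In cDC1 3 of the 8 genes with any read there changed (Blvra up, Hmox1 and Slc11a1 down) beside 8.88%, and in cDC2 3 of 9 (Hmox1, Slc11a1 and Blvrb down) beside 11.0%. The median log2 fold change, MI over SS, was -0.11 in macrophages, 0.13 in moDCs and -0.36 in cDC2 over the 9 genes, and -0.18 in cDC1 over the 8 without Slc40a1, where the median of all genes was -0.03 in each. The shares and medians of all genes cover every gene tested, with or without reads in that cell type. Over all 9 genes the cDC1 median was -0.11.

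**Figure D1:**
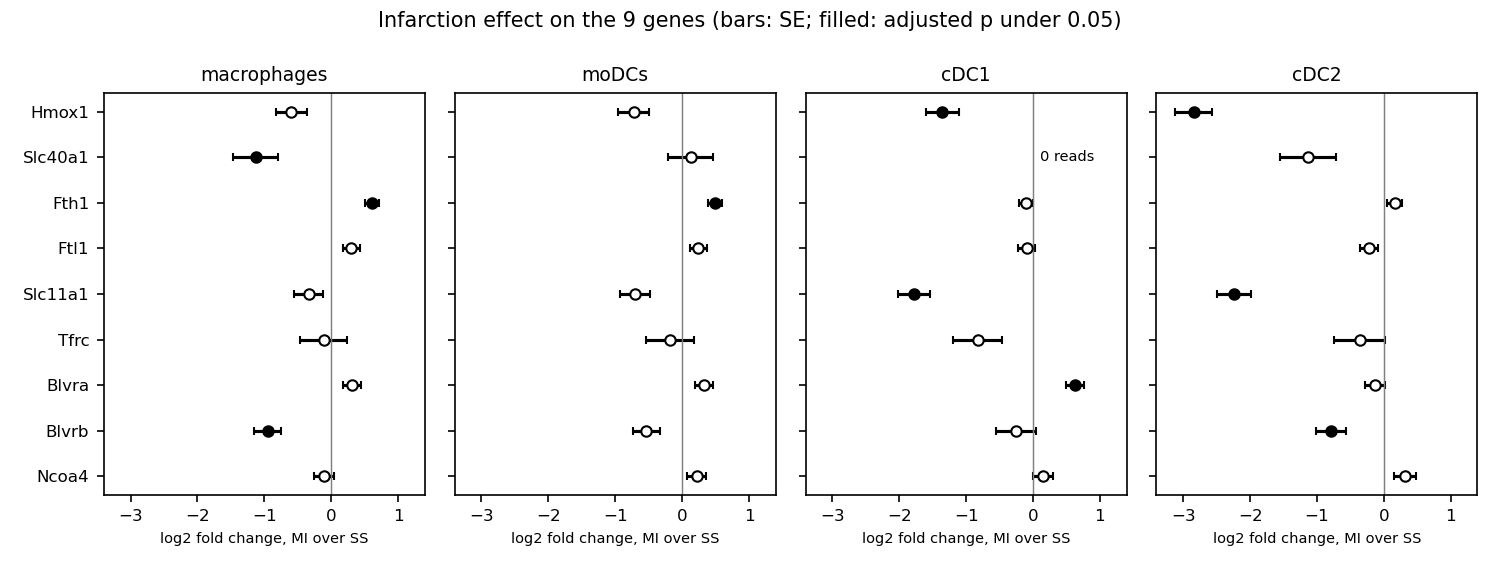
Log2 fold change, MI over SS, of the 9 genes in macrophages, moDCs, cDC1 and cDC2, with bars of 1 SE from edgeR and filled points where the adjusted p was under 0.05. The points farthest from 0 are Hmox1 (-2.84) and Slc11a1 (-2.24) in cDC2, and Fth1 is the only filled point shared by macrophages and moDCs.

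Hmox1 (chr8:75093621-75100589, plus strand, GRCm38) codes for the inducible heme oxygenase, the enzyme that opens the heme ring. In cDC2 it had 41.2, 29.2 and 35.6 CPM in the MI libraries, against 291, 290.0, 141 and 293 CPM in the SS libraries. The groups did not overlap, and the SS library at 141 CPM (replicate 3) stood apart from the other SS libraries. Hmox1 was 7.18-fold lower in MI than in SS cDC2 (log2 fold change -2.84, SE 0.28, adjusted p = 4.05e-08), and -3.04 without that SS library (the farthest of the 7 fits that each left out 1 library, which ran to -2.72). In cDC1 it had 9.98, 16.2, 14.2 and 6.97 CPM in the MI libraries, against 29.6, 41.1, 17.2 and 33.3 CPM in the SS libraries. These levels were low in each cDC1 library, the groups did not overlap, and the fall was 2.56-fold (log2 -1.35, SE 0.25, adjusted p = 0.000569).

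In macrophages Hmox1 had 247, 389, 284 and 256 CPM in the MI libraries, against 481, 478, 393 and 426 CPM in the SS libraries. The highest MI library lay just under the lowest SS library, and the difference did not pass (log2 -0.60, SE 0.23, adjusted p = 0.122), although it passed in a fit on macrophages alone (adjusted p = 0.0257). In moDCs it had 174, 232, 172 and 167 CPM in the MI libraries, against 294, 354, 261 and 322 CPM in the SS libraries. Here too every MI library lay below every SS library, and the test gave an adjusted p of 0.0666 (log2 -0.73, SE 0.23), while DESeq2 gave 0.0226 and a fit on moDCs alone 0.00652. The infarction effect on Hmox1 differed among the 4 cell types (edgeR F test, adjusted p = 0.000197, beside 6.80% of all genes called by that test).

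The biliverdin reductase genes did not move alike. Blvrb (chr7:27447978-27466144, plus strand) codes for a reductase that acts on biliverdin IXβ and on flavins. In macrophages it had 50.7, 88.8, 60.6 and 65.1 CPM in the MI libraries, against 116, 151, 134 and 111 CPM in the SS libraries. Every MI macrophage library lay below every SS one, a fall of 1.93-fold (log2 -0.95, SE 0.20, adjusted p = 0.00242). In cDC2 it had 13.8, 13.5 and 14.9 CPM in the MI libraries, against 22.9, 26.6, 27.9 and 20.1 CPM in the SS libraries. This fall of 1.73-fold (log2 -0.79, SE 0.23, adjusted p = 0.0218) rested on single libraries: it did not pass without MI replicate 1, 2 or 3 or SS replicate 2 or 3 (adjusted p = 0.0508 to 0.0822), nor against SS libraries 1 and 4 alone (0.101).

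In moDCs Blvrb averaged 40.4 ± 1.37 CPM in MI and 58.3 ± 17.5 CPM in SS (SD, n = 4 each, log2 -0.53, adjusted p = 0.135). In cDC1 it was near the bottom of the measured range, at 1.44 ± 0.52 CPM in MI and 1.76 ± 0.73 CPM in SS (n = 4 each), and a difference was not detectable at this depth (10 to 27 reads per library). Blvra (chr2:127070665-127097084, plus strand) codes for the reductase of the common biliverdin IXα. In cDC1 it had 35.6, 39.4, 37.6 and 46.9 CPM in the MI libraries, against 22.4, 27.3, 28.7 and 24.8 CPM in the SS libraries. The groups did not overlap, and Blvra rose 1.55-fold in MI cDC1 (log2 0.63, SE 0.14, adjusted p = 0.0024). In cDC2 it averaged 44.4 ± 3.27 CPM in MI (n = 3) and 48.7 ± 7.64 CPM in SS (n = 4), and the effects in cDC1 and cDC2 differed (log2 0.77, SE 0.20, adjusted p = 0.0214). The edgeR F test over the 4 cell types did not pass for Blvra (adjusted p = 0.0802). Macrophages had 88.1 ± 6.27 CPM of Blvra in MI and 71.1 ± 11.9 CPM in SS, and moDCs 83.9 ± 3.13 CPM in MI and 67.2 ± 8.89 CPM in SS (n = 4 each, adjusted p = 0.175 and 0.179).

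**Figure D2:**
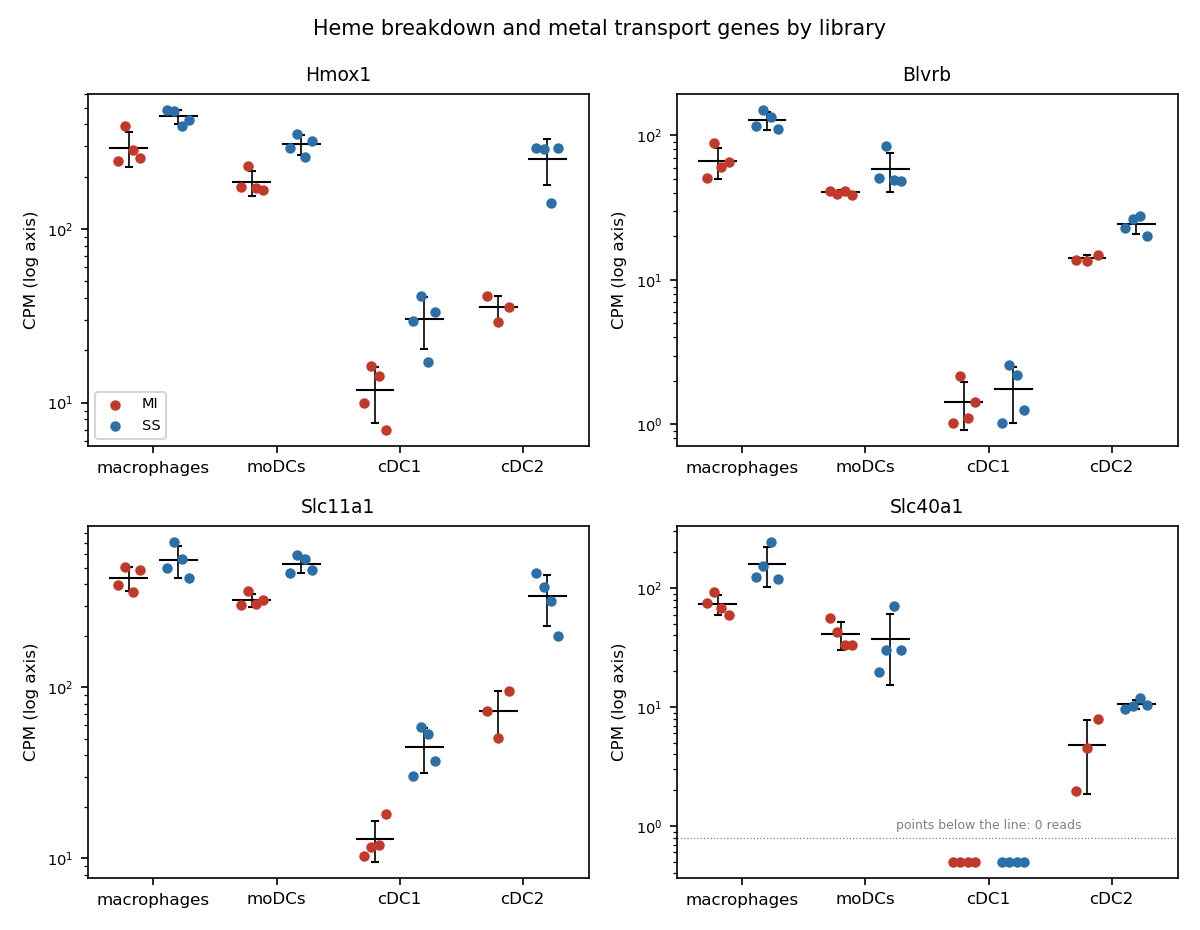
CPM on log axes of Hmox1, Blvrb, Slc11a1 and Slc40a1 in each library (points), by cell type, MI in red and SS in blue, with the mean (line) and SD (bars). In cDC2 the 3 MI libraries of Hmox1 (29.2 to 41.2 CPM) and of Slc11a1 (50.2 to 94.9 CPM) sit below all SS libraries, and all 8 cDC1 libraries of Slc40a1 are at 0 reads (drawn under the dotted line).

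Slc11a1 (chr1:74375195-74386062, plus strand) codes for a transporter, also called NRAMP1, that moves iron and manganese out of the phagosome. In cDC2 it had 72.9, 50.2 and 94.9 CPM in the MI libraries, against 468, 388, 319 and 199 CPM in the SS libraries. The groups were far apart, and the fall was 4.73-fold (log2 -2.24, SE 0.26, adjusted p = 5.54e-07). In cDC1 it had 10.3, 11.6, 12.0 and 18.1 CPM in the MI libraries, against 30.3, 58.6, 53.3 and 37.0 CPM in the SS libraries. Again the groups did not overlap, with a fall of 3.44-fold (log2 -1.78, SE 0.24, adjusted p = 9.64e-06). In moDCs it had 303, 364, 307 and 325 CPM in the MI libraries, against 465, 596, 566 and 489 CPM in the SS libraries. All moDC libraries from infarcted hearts were below those from SS hearts, yet the adjusted p was 0.0652 (log2 -0.70, SE 0.22) and passed only under some alternatives (0.02 in DESeq2, 0.0108 against SS libraries 2 and 3 alone). In macrophages the values overlapped, at 438 ± 69.4 CPM in MI and 554 ± 118 CPM in SS (n = 4 each, adjusted p = 0.426). The effect differed among the cell types (F test, adjusted p = 0.000517).

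The falls of Hmox1 and Slc11a1 in cDC2 came together with lower monocyte and macrophage transcripts in the same libraries. The summed CPM of 10 monocyte and macrophage genes was 7422, 5178 and 8437 in MI cDC2, against 19321, 32009, 30359.8 and 20235 in SS cDC2 (two-sided exact permutation test, p = 0.0286, the smallest this design allows, adjusted over 56 list tests p = 0.0696). Of the 10 genes, 9 had a lower mean in MI cDC2; edgeR called 7 of them lower and 1, the Fc receptor gene Fcgr1, higher (84.2 ± 15.9 CPM in MI and 36.9 ± 12.5 CPM in SS), while Cd68 was close in level (587 ± 52.1 CPM in MI and 626 ± 68.3 CPM in SS). Lyz2, which codes for lysozyme, made up 49.4% of the sum in MI cDC2 and 76.7% in SS cDC2. Without it, a sum added after the values had been seen, the list gave 3010 to 3855 CPM in MI cDC2 and 4898 to 6945 CPM in SS cDC2 (0.599 of the SS mean, exact permutation p = 0.0571), where the full list gave 0.275. The same sum without Lyz2 had an exact permutation p of 0.114 in moDCs and 0.0286 in cDC1, where it was 0.639 of the SS mean. Gene by gene, edgeR called 7 of the 10 lower and 0 higher in cDC1, and 0 either way in moDCs and in macrophages. Lyz2 averaged 3461 ± 1216 CPM in MI cDC2 (n = 3) and 19554 ± 5506 CPM in SS cDC2 (n = 4), and SS macrophages averaged 17882 ± 2721 CPM (n = 4). The complement gene C1qa averaged 174 ± 77.0 CPM in MI cDC2 and 477 ± 191 CPM in SS cDC2, against 5267 ± 1018 CPM in SS macrophages, and Cd14 averaged 1063 ± 110 CPM in MI cDC2 and 2014 ± 689 CPM in SS cDC2. The 8 cDC2 genes summed to 5391 to 6326 CPM in MI cDC2 and 4823 to 6638 CPM in SS cDC2 (exact permutation p = 0.657). None of the 10 monocyte and macrophage genes was at 0 throughout the libraries of a cell type, and the SS cDC2 library lowest in Hmox1 (replicate 3) was the second highest of its group in their sum. The list summed to 997 to 1296 CPM in MI cDC1 and 1950.1 to 2347 CPM in SS cDC1, and to 20706 to 26287 CPM in MI moDCs and 28979 to 36910.2 CPM in SS moDCs (exact permutation p = 0.0286 each, adjusted p = 0.0696 each). In macrophages it summed to 31016 to 37323 CPM in MI and 35849 to 44238 CPM in SS (exact permutation p = 0.114). The 8 cDC2 genes were also lower in cDC1 after MI. They summed to 29.9 to 42.5 CPM in MI cDC1 and 76.6 to 112 CPM in SS cDC1 (exact permutation p = 0.0286, adjusted p = 0.0696). The part of these transcripts in the changes of Hmox1 and Slc11a1 was not tested.

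**Figure D3:**
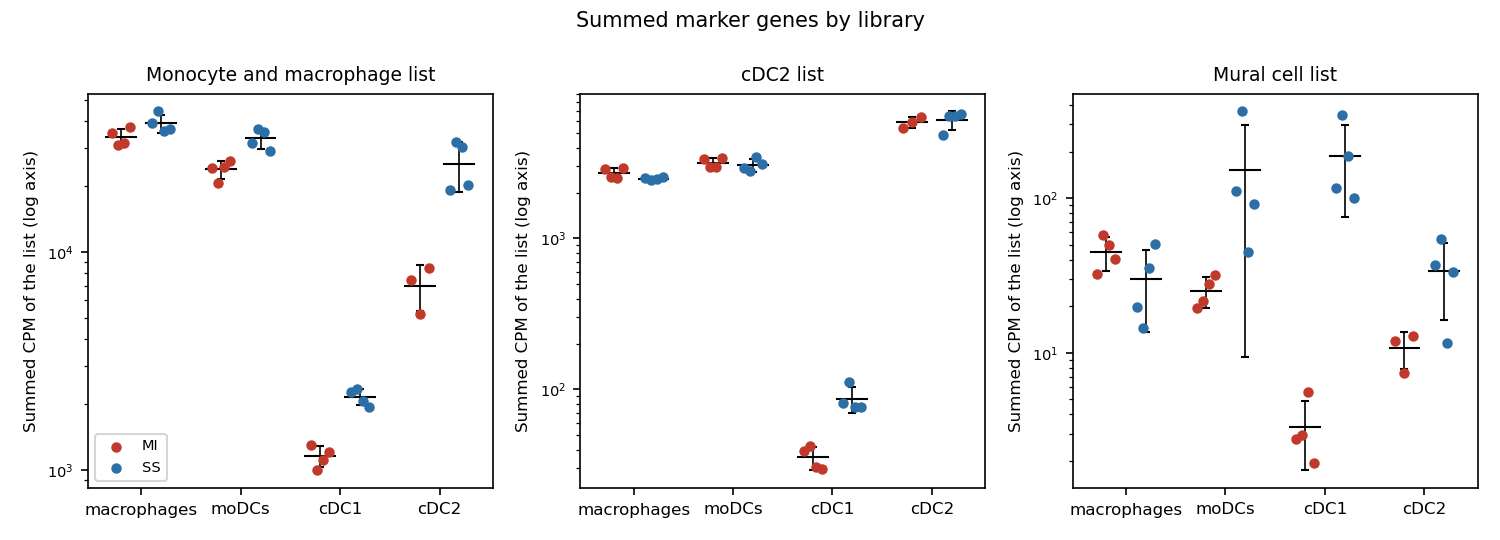
Summed CPM (log axes) of 10 monocyte and macrophage genes, 8 cDC2 genes and 9 mural cell genes in each library (points), MI in red and SS in blue, with the mean (line) and SD (bars). The monocyte and macrophage sum in cDC2 lies at 5178 to 8437 CPM in MI and 19321 to 32009 CPM in SS, while the cDC2 sum overlaps between the states, and the mural sum in cDC1 is 1.95 to 5.57 CPM in MI and 99.6 to 345 CPM in SS.

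Other cell types' transcripts also ran lower in the MI libraries of some populations. Each exact p of 0.0286 given here became an adjusted p of 0.0696 over the 56 list tests, so none passed. A list of 9 mural cell genes summed to 19.3 to 31.6 CPM in MI moDCs and 44.7 to 363 CPM in SS moDCs, and to 1.95 to 5.57 CPM in MI cDC1 and 99.6 to 345 CPM in SS cDC1 (exact p = 0.0286 each). Endothelial, cardiomyocyte and fibroblast sums were lower in every MI library than in every SS library of moDCs and of cDC1 as well. In macrophages the cardiomyocyte sum was 54.5 to 132 CPM in MI and 155 to 228 CPM in SS, and the sum of 5 NK cell genes 0 to 0.62 CPM in MI and 3.14 to 15.5 CPM in SS (exact p = 0.0286 each), in the same libraries in which Fth1 was higher and Blvrb and Slc40a1 were lower. Not every list ran lower. A list of 5 mast cell genes summed to 141 to 182 CPM in MI cDC2 and 31.7 to 63.1 CPM in SS cDC2 (exact p = 0.0286). In cDC1 it summed to 288.5 to 336 CPM in MI and 170 to 278 CPM in SS (exact p = 0.0286). Of these genes Kit alone averaged 155 CPM in MI cDC2 and 316 CPM in MI cDC1. In macrophages the mast cell sum was lower, at 0 to 0.28 CPM in MI and 0.29 to 4.41 CPM in SS. The part of all these transcripts in the results for the 9 genes was not tested. Red cell content could not be read from these tables: 7 of the 9 erythroid genes found, among them the hemoglobin genes, were listed at 0 in every library.

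Slc40a1 (chr1:45908068-45926523, minus strand) codes for ferroportin. It had 74.6, 92.4, 68.1 and 60.0 CPM in MI macrophages, against 123, 155, 246 and 119 CPM in SS macrophages. Every MI macrophage library was below every SS one, with SS replicate 3 well above the rest, and the difference was 2.18-fold (log2 -1.13, SE 0.34, adjusted p = 0.0436). This call was fragile: it held in 2 of the 8 fits that left out 1 library, gave -0.83 (adjusted p = 0.171) without SS replicate 3, and did not pass against SS libraries 1 and 4 alone (-0.73, adjusted p = 0.19) or with no filter on low counts (0.0736). In moDCs it had 56.3, 42.4, 33.1 and 33.1 CPM in the MI libraries, against 19.8, 30.4, 70.7 and 29.95 CPM in the SS libraries. These ranges overlapped (log2 0.13, SE 0.34, adjusted p = 0.908). In cDC2 it had 1.98, 4.56 and 7.90 CPM in the MI libraries, against 9.62, 10.2, 11.9 and 10.5 CPM in the SS libraries, with no overlap but an adjusted p of 0.0857 (log2 -1.13, SE 0.42), which became 0.0237 in DESeq2 and 0.0268 without MI replicate 3.

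No read was assigned to Slc40a1 in any of the 8 cDC1 libraries, so it passed the filter through its reads in the other cell types. Against a floor of 3 reads over the 4 cDC1 libraries of the same state, Slc40a1 was at least 969-fold higher in MI macrophages, at least 557-fold higher in MI moDCs and at least 64.6-fold higher in MI cDC2. In SS the same bounds were 2550-fold for macrophages, 577-fold for moDCs and 167-fold for cDC2. The floor covers counting error only. The other 8 genes also had their lowest group mean of each state in cDC1, but none of them was at 0.

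Fth1 (chr19:9980598-9985098, plus strand) codes for the ferritin heavy chain, which carries the ferroxidase activity that lets iron into the shell. In macrophages it had 6659, 6937, 6394 and 5741 CPM in the MI libraries, against 3976, 4862, 4127 and 3876 CPM in the SS libraries. In moDCs it had 9029, 8397, 8421 and 7915 CPM in the MI libraries, against 5463, 6144, 6857 and 5525 CPM in the SS libraries. No MI library of these cell types came down to the SS range. Fth1 rose 1.53-fold in macrophages (log2 0.61, SE 0.10, adjusted p = 0.000175) and 1.41-fold in moDCs (log2 0.49, SE 0.10, adjusted p = 0.00296), and each call held in all 8 fits that left out 1 library.

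In cDC1 Fth1 averaged 2067 ± 119 CPM in MI and 2226 ± 105 CPM in SS (n = 4 each, log2 -0.11, adjusted p = 0.646), and in cDC2 4336 ± 527 CPM in MI (n = 3) and 3864 ± 536 CPM in SS (n = 4, log2 0.17, adjusted p = 0.379). The infarction effect on Fth1 differed among the cell types (F test, adjusted p = 0.00414): it was higher in macrophages than in cDC1 by 0.72 on the log2 scale (SE 0.15, adjusted p = 0.00259) and higher in moDCs than in cDC1 by 0.60 (SE 0.15, adjusted p = 0.0217). The second of these did not pass without MI cDC1 replicate 2 (0.0596), SS moDC replicate 1 (0.0528) or SS moDC replicate 4 (0.0526).

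Ftl1 (chr7:45457944-45459884, minus strand) codes for the light chain, which aids mineral formation inside the shell. In macrophages it had 10421, 10900.2, 9369 and 9599 CPM in the MI libraries, against 8288, 8680, 7788 and 7991 CPM in the SS libraries. The groups did not overlap, but the difference of 0.30 on the log2 scale (SE 0.13) did not pass (adjusted p = 0.159). In moDCs it had 11037, 11018, 11203 and 11034 CPM in the MI libraries, against 7491, 8263, 11370.2 and 10303 CPM in the SS libraries, and the MI libraries were closely spaced within the wide SS range (adjusted p = 0.304). In cDC1 it averaged 3141 ± 297 CPM in MI and 3347 ± 399 CPM in SS (n = 4 each), and in cDC2 5025 ± 857 CPM in MI (n = 3) and 5884 ± 1026 CPM in SS (n = 4), with adjusted p = 0.78 and 0.309. Exons of Ftl1 share 355 bases with Gm10252 on the opposite strand and 109 bases with Gm22133 on its own strand. The sources used here do not say whether strand was used in counting, so Ftl1 reads are uncertain to that extent.

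The ratio of Fth1 to Ftl1 reads within a library was examined after the values of both genes had been seen. It is not corrected for gene length and is set side by side only between groups. The ratio was 0.64 ± 0.03 in MI macrophages and 0.51 ± 0.04 in SS macrophages (SD, n = 4 each), and 0.87 ± 0.04 in MI cDC2 (n = 3) and 0.66 ± 0.05 in SS cDC2 (n = 4). In both cell types every MI library was above every SS library (two-sided exact permutation test, p = 0.0286, the smallest these designs allow, adjusted over the 4 cell types p = 0.0572), so neither passed the adjustment. In moDCs the ratio was 0.76 ± 0.04 in MI and 0.65 ± 0.10 in SS, and in cDC1 0.66 ± 0.05 in MI and 0.67 ± 0.05 in SS (n = 4 each, exact p = 0.114 and 0.743). The ferritin genes together took 1.70% ± 0.12 of all reads in genes in MI macrophages and 1.27% ± 0.02 in SS macrophages, and 1.97% ± 0.08 in MI moDCs and 1.51% ± 0.19 in SS moDCs (n = 4 each, exact p = 0.0286 each, adjusted p = 0.0572). They took 0.533% in MI cDC1 and 0.555% in SS cDC1, and 0.953% in MI cDC2 and 0.886% in SS cDC2.

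**Figure D4:**
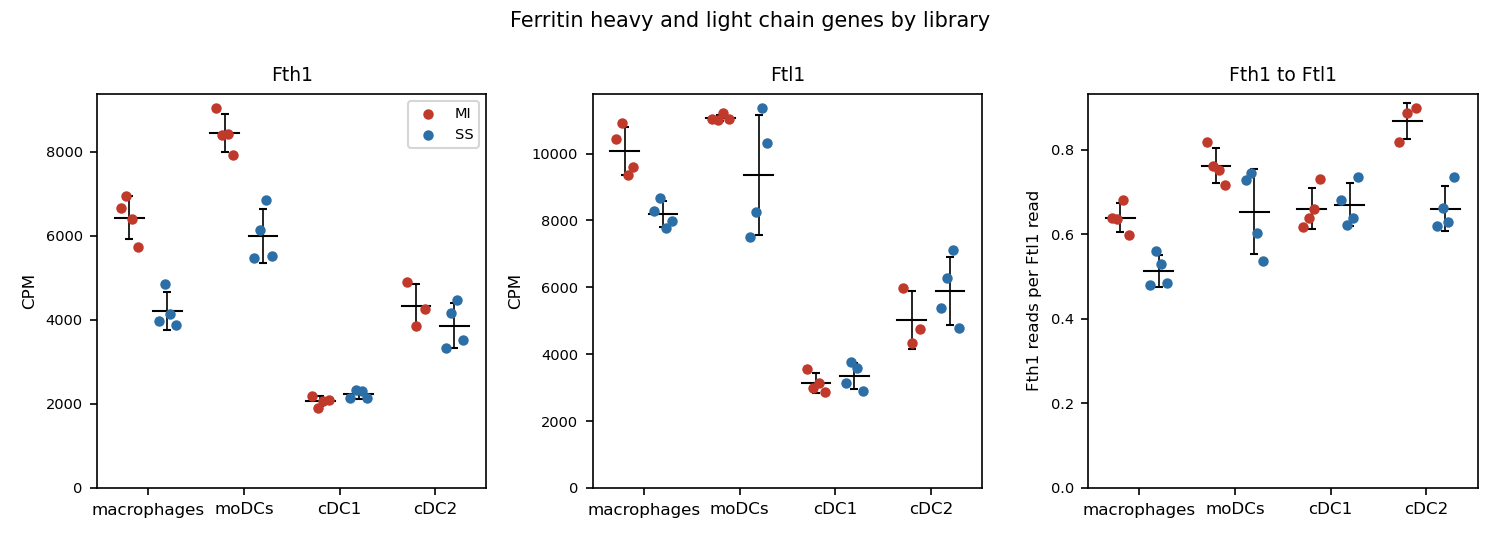
CPM of Fth1 and Ftl1 and the ratio of Fth1 to Ftl1 reads in each library (points), by cell type, MI in red and SS in blue, with the mean (line) and SD (bars). Fth1 lies at 5741 to 6937 CPM in MI macrophages and 3876 to 4862 CPM in SS macrophages, and the ratio in cDC2 is 0.82 to 0.90 in MI and 0.62 to 0.74 in SS.

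Ncoa4 (chr14:32159865-32179855, plus strand) codes for the receptor that takes ferritin to the lysosome for iron release. It averaged 338 ± 42.2 CPM in MI macrophages and 365 ± 71.2 CPM in SS macrophages, and 277 ± 15.9 CPM in MI moDCs and 239 ± 30.3 CPM in SS moDCs (n = 4 each). In cDC1 it averaged 156 ± 12.0 CPM in MI and 140.1 ± 28.3 CPM in SS (n = 4 each), and in cDC2 215 ± 33.4 CPM in MI (n = 3) and 172 ± 32.1 CPM in SS (n = 4). The libraries of the 2 states overlapped in each cell type, and no difference passed (adjusted p = 0.748 in macrophages, 0.492 in moDCs, 0.641 in cDC1 and 0.212 in cDC2).

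Tfrc (chr16:32608920-32632794, plus strand) codes for the transferrin receptor, which takes up iron bound to transferrin, and it carries the 4 hairpin matches shown above. In cDC1 it had 3.599, 8.09, 7.52 and 9.94 CPM in the MI libraries, against 15.0, 10.2, 13.5 and 13.0 CPM in the SS libraries. The groups did not overlap, but on 35 to 249 reads per library the difference did not pass (log2 -0.83, SE 0.37, adjusted p = 0.184). It averaged 22.1 ± 8.61 CPM in MI macrophages and 23.8 ± 5.37 CPM in SS macrophages, and 14.3 ± 2.81 CPM in MI moDCs and 16.3 ± 10.1 CPM in SS moDCs (n = 4 each). In cDC2 the mean was 22.8 ± 4.61 CPM in MI (n = 3) and 29.3 ± 10.3 CPM in SS (n = 4). The libraries of the 2 states overlapped in these 3 cell types (adjusted p = 0.617 to 0.92).

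**Figure D5:**
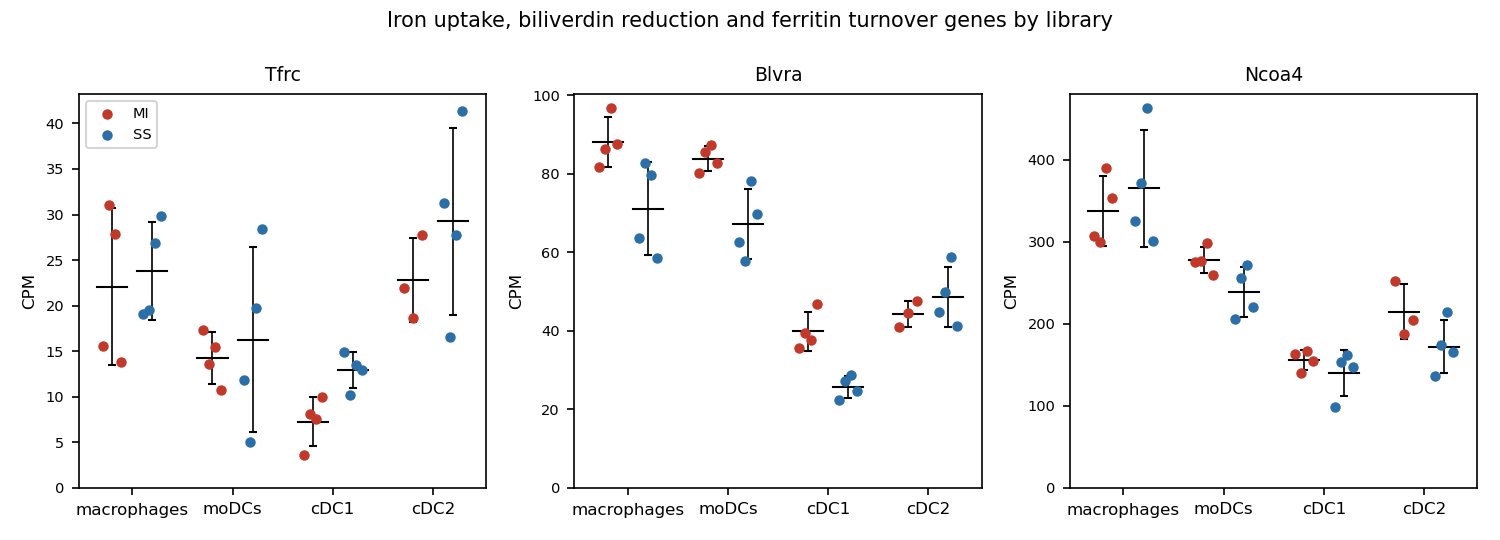
CPM of Tfrc, Blvra and Ncoa4 in each library (points), by cell type, MI in red and SS in blue, with the mean (line) and SD (bars). Blvra in cDC1 is 35.6 to 46.9 CPM in MI and 22.4 to 28.7 CPM in SS, and the Ncoa4 libraries of the 2 states overlap in all 4 cell types.

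The calls were also taken against each pair of SS libraries that differed in the share of reads outside annotated features. Against SS libraries 1 and 4 alone, Hmox1 changed by -3.04 in cDC2 and -1.41 in cDC1, and Slc11a1 by -2.19 in cDC2 and -1.37 in cDC1 (log2, MI over SS). Against SS libraries 2 and 3 alone, Hmox1 changed by -2.61 in cDC2 and -1.30 in cDC1, and Slc11a1 by -2.28 in cDC2 and -2.11 in cDC1. Fth1 changed by 0.70 in macrophages and 0.61 in moDCs against libraries 1 and 4, and by 0.52 in macrophages and 0.38 in moDCs against libraries 2 and 3. Blvrb changed by -0.79 in macrophages and Blvra by 0.75 in cDC1 against libraries 1 and 4, and Blvrb by -1.10 in macrophages and Blvra by 0.51 in cDC1 against libraries 2 and 3. These 8 calls passed in edgeR against either pair (adjusted p at most 0.043), whereas Slc40a1 in macrophages (-1.45, adjusted p = 0.0176) and Blvrb in cDC2 (-0.95, adjusted p = 0.0071) passed only against libraries 2 and 3. Some effects that did not pass over all SS libraries passed against 1 pair. Against libraries 1 and 4, Ncoa4 in cDC2 gave 0.52 (adjusted p = 0.0456) and Blvra in macrophages 0.51 (0.0385). Against libraries 2 and 3, Ftl1 in cDC2 gave -0.41 (0.0378) and Blvrb in moDCs -0.73 (0.0383), besides Slc11a1 in moDCs.

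Pairwise tests asked between which cell types the infarction effect differed. For Hmox1 the effect in cDC2 lay below that in macrophages (log2 difference 2.25, macrophages minus cDC2, SE 0.35, adjusted p = 0.000118), in moDCs (2.12, SE 0.35, adjusted p = 0.00113) and in cDC1 (1.49, SE 0.36, adjusted p = 0.0126). Its difference between cDC1 and macrophages (adjusted p = 0.268) or moDCs (0.519) did not pass. Nor did that of Fth1 between cDC2 and macrophages (0.0981, but 0.0399 in DESeq2) or moDCs (0.417). For Slc11a1 the effect in macrophages lay above that in cDC1 (1.44, SE 0.33, adjusted p = 0.00826) and in cDC2 (1.901, SE 0.33, adjusted p = 0.000566), and the effect in moDCs above that in cDC2 (1.54, SE 0.33, adjusted p = 0.0143), the last of which did not pass without MI cDC2 replicate 2 (0.0697). The Blvra difference between cDC1 and cDC2 did not pass without MI cDC2 replicate 1 (0.0739), MI cDC1 replicate 4 (0.06) or SS cDC2 replicate 3 (0.0569). By pair, 2 of the 9 genes were called for macrophages minus cDC1 (4.04% of all genes), 2 for macrophages minus cDC2 (4.49%), 1 for moDCs minus cDC1 (1.79%), 2 for moDCs minus cDC2 (0.905%) and 2 for cDC1 minus cDC2 (4.21%). None was called for macrophages minus moDCs, where 0.291% of all genes were.

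Between cell types of the same state, 8 of the 9 genes had their highest mean in macrophages or moDCs, Tfrc had it in cDC2, and all 9 had their lowest in cDC1. All 9 were higher in macrophages than in cDC1, after MI (45.4% of all genes called, in either direction) and in SS (42.8%). Between moDCs and cDC1, 9 genes were higher in moDCs after MI (36.0% of all genes) and 8 in SS (33.3%), all but Tfrc. Between macrophages and cDC2, 8 were higher in macrophages after MI (26.4%) and 7 in SS (35.2%). Between moDCs and cDC2, 7 were higher in moDCs after MI (10.1%) and 6 in SS (15.4%). Between cDC1 and cDC2, 8 were lower in cDC1 after MI (26.8%) and 8 in SS (28.2%), the ninth being Blvra after MI and Ncoa4 in SS. Macrophages and moDCs differed least, with Blvrb higher and Fth1 lower in macrophages after MI (10.8% of all genes), and Slc40a1, Blvrb and Ncoa4 higher and Fth1 lower in macrophages in SS (12.9%). Some of these calls rested on single libraries. Leaving out 1 library at a time lost the Tfrc call between macrophages and cDC1 in SS without any of 6 libraries (adjusted p = 0.055 to 0.127), and the Ncoa4 call between moDCs and cDC2 in SS without any of 5 (0.0538 to 0.113). It also lost the Ncoa4 call between cDC1 and cDC2 after MI without any of 3 (0.0555 to 0.214), the Blvra call between moDCs and cDC2 in SS without any of 3 (0.0528 to 0.0694), the Slc11a1 call between macrophages and cDC2 in SS without either of 2 (0.071 and 0.0716), and the Tfrc call between cDC1 and cDC2 in SS without SS cDC2 replicate 4 (0.0574).

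Neighbours in the order of levels did not all differ beyond their spread. After MI, Hmox1 and Slc11a1 each ran from macrophages through moDCs and cDC2 to cDC1, and the step that did not pass was macrophages to moDCs (adjusted p = 0.0645 for Hmox1, 0.0265 in DESeq2, and 0.242 for Slc11a1). In SS the order was the same, and the step from moDCs to cDC2 did not pass either (0.468 for Hmox1 and 0.0565 for Slc11a1, the second 0.0269 in DESeq2). Blvrb held this order in each state, with every neighbour different from the next (adjusted p at most 0.019). Slc40a1 followed the same order, and in SS macrophages it was higher than in SS moDCs by 2.095 on the log2 scale (adjusted p = 0.000172), whereas after MI this pair gave 0.84 (adjusted p = 0.123). The ferritin genes were highest in moDCs. Fth1 was higher in moDCs than in macrophages by 0.39 after MI (adjusted p = 0.0109) and by 0.51 in SS (adjusted p = 0.000691), and the Ftl1 difference did not pass (0.567 after MI, 0.368 in SS). The first of the Fth1 differences did not pass without MI macrophage replicate 4 (0.0588), nor did the Blvrb difference between MI macrophages and MI moDCs without MI macrophage replicate 2 (0.0892). Tfrc had another order, with cDC2 first and macrophages, moDCs and cDC1 after it. After MI its first neighbours to differ were moDCs and cDC1 (adjusted p = 0.039, lost without any of 6 of the 8 libraries), and in SS no neighbours did.

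Beyond the 9 genes, 85 further genes of heme and iron handling were looked up in 6 lists, and 76 passed the filter on low counts. Of these 76, 6 rose and 3 fell in macrophages, 4 rose and 4 fell in moDCs, 2 rose and 6 fell in cDC1, and 1 rose and 12 fell in cDC2, against the shares of all genes given above. Cd163, the scavenger receptor for hemoglobin bound to haptoglobin, fell in all 4 cell types. It averaged 129 ± 34.2 CPM in MI macrophages and 511 ± 85.3 CPM in SS macrophages (n = 4 each, 3.97-fold, adjusted p = 1.1e-06), and 28.2 ± 8.29 CPM in MI cDC2 (n = 3) and 111 ± 28.5 CPM in SS cDC2 (n = 4, 3.95-fold, adjusted p = 4.18e-06). The falls were 5.81-fold in moDCs (adjusted p = 7.54e-08) and 3.87-fold in cDC1 (7.64e-05), where it was low, at 1.85 ± 0.58 CPM in MI and 7.29 ± 2.74 CPM in SS.

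Trf, the gene for the iron carrier transferrin, also fell in all 4. In cDC2 it averaged 556 ± 65.2 CPM in MI (n = 3) and 2009 ± 222 CPM in SS (n = 4), a fall of 3.61-fold (adjusted p = 1.46e-13). It fell 2.08-fold in cDC1 (adjusted p = 2.8e-09), 1.52-fold in moDCs (6.46e-05) and 1.46-fold in macrophages (0.000215). Slc39a14, which codes for an importer of iron not bound to transferrin, rose in macrophages to 76.3 ± 6.78 CPM in MI, against 29.4 ± 6.55 CPM in SS (n = 4 each, 2.59-fold, adjusted p = 0.00139). Iscu, the scaffold on which iron-sulfur clusters are built, rose there 1.54-fold (79.5 ± 6.03 CPM in MI and 51.7 ± 1.41 CPM in SS, adjusted p = 0.00299).

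Of 14 iron transport and reduction genes tested in cDC2, 5 fell and 1 rose, with a median log2 fold change of -1.001, and 3 of 9 heme uptake and transport genes fell there, beside 11.0% of all genes called. The monocyte and macrophage sum of the same MI cDC2 libraries was 0.275 of that in SS, and its part in these falls was not tested. Steap3, an endosomal ferrireductase gene, averaged 12.1 ± 4.43 CPM in MI cDC2 (n = 3) and 54.3 ± 20.6 CPM in SS cDC2 (n = 4, 4.49-fold lower, adjusted p = 1.34e-05). Cp, which codes for the ferroxidase ceruloplasmin, averaged 5.75 ± 2.17 CPM in MI moDCs and 31.3 ± 11.7 CPM in SS moDCs (n = 4 each, adjusted p = 0.00181), and 0.26 ± 0.29 CPM in MI cDC2 and 5.63 ± 4.21 CPM in SS cDC2 (adjusted p = 0.000447). Steap4, another metalloreductase gene, was near 0 after MI, at 0.25 ± 0.50 CPM in MI moDCs and 11.2 ± 8.91 CPM in SS moDCs, and 0.03 ± 0.05 CPM in MI cDC1 and 3.42 ± 1.63 CPM in SS cDC1 (n = 4 each, adjusted p = 0.000244 and 0.000241). The mural, endothelial and fibroblast sums given above moved the same way in moDCs and cDC1, and their part in these falls was not tested. Abcg2, a porphyrin and drug exporter gene, fell 2.12-fold in cDC1 (5.25 ± 2.80 CPM in MI and 11.1 ± 4.21 CPM in SS, adjusted p = 0.00963). The heme synthesis list showed no call among its 12 genes in macrophages, moDCs and cDC2, and in cDC1 2 rose. Of 15 target genes of the oxidant-response factor Nrf2, 1 rose and 1 fell in macrophages, 2 rose in moDCs, 1 fell in cDC1 and 2 fell in cDC2. The shares of all genes called beside these were 7.39% in macrophages, 4.84% in moDCs, 8.88% in cDC1 and 11.0% in cDC2.

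In SS, the related genes went both ways between macrophages and the other populations. Of the 76 tested, 26 were higher and 14 lower in macrophages than in cDC1, 12 higher and 21 lower than in cDC2, and 5 higher and 12 lower than in moDCs, where 42.8%, 35.2% and 12.9% of all genes were called. Cd163 in SS macrophages was higher than in SS cDC1 (70.8-fold, adjusted p = 3.61e-17), SS moDCs (6.70-fold, adjusted p = 1.36e-09) and SS cDC2 (4.59-fold, adjusted p = 9.98e-09). Trf was 4.59-fold higher in SS macrophages than in SS cDC1 (3244 ± 187 CPM and 707 ± 22.9 CPM, n = 4 each, adjusted p = 2e-18) and 1.81-fold higher than in SS moDCs (5.63e-08). Hfe, a partner of the transferrin receptors, was 3.34-fold higher than in SS cDC1 (adjusted p = 4.72e-14) and 1.55-fold higher than in SS moDCs (0.000163), and Steap3 41.4-fold higher than in SS cDC1 (4.94e-14). Cp was 21.0-fold higher in SS macrophages than in SS cDC2 (118 ± 17.2 CPM and 5.63 ± 4.21 CPM, adjusted p = 7.96e-08). The pentose phosphate genes of the Nrf2 list went the other way: Taldo1 (transaldolase) was 2.61-fold and Tkt (transketolase) 1.89-fold lower in SS macrophages than in SS cDC2 (adjusted p = 1.42e-09 and 5.23e-08), and Taldo1 was 1.74-fold lower than in SS moDCs (7.61e-05).

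Several of the 9 genes followed one another over the 8 group means of log2 CPM. Pearson's r was 0.996 for Slc40a1 with Blvrb, 0.99 for Hmox1 with Slc11a1 and 0.95 for Fth1 with Ftl1. These are descriptions over 8 points that share their libraries and are ordered mainly by cell type, and many genes reach such values. The tested genes most like Hmox1 by this measure were Chchd7, Nod1 and Rhoh (r = 0.99 each). Those most like Slc11a1 were Plau, Pgrmc1 and Lyz2 (0.99 each), of which Lyz2 belongs to the monocyte and macrophage list and Pgrmc1 to the heme transport list. Blvrb was closest to Abcc5, C1qc and C5ar1 (0.99 each), and Slc40a1 to Tmem37, Abhd12 and Tmem251 (0.993 to 0.995). Fth1 was closest to Nceh1, Bcar3 and Cdk18 (0.99 each), and Ftl1 to Klc4, Dmxl2 and the cathepsin gene Ctsb (0.99 each). Blvra was closest to Ifi47, Tmem165 and Tpd52 (0.98 to 0.99) and Ncoa4 to Chst14, Tnfrsf11a and Tgfb3 (0.99 each). Tfrc had the lowest best match of the 9 genes, with Rela at 0.955, followed by Kdsr (0.95) and Arhgef3 (0.94).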

How the data were processed

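RNA was read as single 75 nt reads after SMART-Seq v4 amplification of 4 ng total RNA, per the labels' protocols. Per the submitters' processing notes the authors used FastQC 0.11.4, Trimmomatic 0.35, TopHat2 2.1.0, SAMtools 0.1.18 and mm10, with no word in the sources used here on the counting tool or strand. The authors deposited raw read counts per gene symbol. Entries for reads in no gene (no-feature share 6.42% to 16.9%) stayed out of library sizes.

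CPM used TMM factors. The main test was edgeR 4.0.16 (R 4.3.3), quasi-likelihood, robust, over 13039 genes (filterByExpr, minimum count 10) in 1 model of the 8 group means, with Benjamini-Hochberg adjustment, and common dispersion 0.116. Sums of marker lists and read ratios were compared by exact permutation tests. The scripts were tested on simulated data. Alternatives were DESeq2 1.42.0, other scaling, no filter, a replicate block (by number for MI against SS, by number within a state otherwise), subsets of libraries and leaving out each library. The Fth1 to Ftl1 ratio and a monocyte and macrophage sum without Lyz2 were added after the data had been seen. Named genes were the 9 members, up to 4 called related genes with the smallest adjusted p per comparison, and the 3 genes with the highest r to each member. The members, lists and rules were chosen with earlier results of these data known.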

Additional observations from a re-analysis of the deposited data

Results flagged for a closer look

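In groups of 4 libraries, 1 library stood apart from the other 3, relative to the group's own range, in 4 of 61 gene-by-group sets with reads. The rule was a gap to the nearest library over the group's range above 0.829, and chance gives about 1 in 20. They were Hmox1 in MI moDC replicate 2 (232 CPM, gap over range 0.886), Ftl1 in MI moDC replicate 3 (11203 CPM, 0.895), Hmox1 in SS cDC2 replicate 3 (141 CPM, 0.978) and Blvrb in SS moDC replicate 2 (84.5 CPM, 0.937). For Ftl1 the whole MI moDC range was narrow, at 11018 to 11203 CPM. SS moDC replicate 2 also had the highest mural sum of its group (363 CPM), and its part in the Blvrb value was not tested.

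The infarction effect differed between cell types for 4 genes. For Hmox1 the adjusted p was 0.000197 over the 4 cell types, 0.000118 for macrophages minus cDC2, 0.00113 for moDCs minus cDC2 and 0.0126 for cDC1 minus cDC2. For Slc11a1 it was 0.000517 over the 4 cell types, 0.00826 for macrophages minus cDC1, 0.000566 for macrophages minus cDC2 and 0.0143 for moDCs minus cDC2. For Fth1 it was 0.00414 over the 4 cell types, 0.00259 for macrophages minus cDC1 and 0.0217 for moDCs minus cDC1. For Blvra it was 0.0214 for cDC1 minus cDC2 only, and the F test over the 4 cell types did not pass (0.0802).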

How the results depend on the processing

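Of 3374 values of the 9 genes under the alternatives, 3280 kept their side of the threshold, 41 newly passed and 53 no longer passed, and no called value changed sign. In moDCs, 1 gene was called for MI against SS, but 2 with upper-quartile factors, and 3 with DESeq2, with moDC libraries alone or with SS numbers 2 and 3 alone. The labels do not say what equal replicate numbers mean, and they were not used as pairs: deviations of same-numbered libraries of 1 state had r above 0.1 in 15 of 45 pairs (median 0.052), those of differently numbered ones in 3 of 135 (median -0.022), and MI with SS in 0 of 15. Some sharing by number within a state is thus not settled. With the replicate block, 2 genes were called in moDCs (Hmox1 added, adjusted p = 0.0305), and 4 rather than 2 for the effect in macrophages minus cDC2. The block within a state also let pass Hmox1 for macrophages against moDCs in MI (0.00865) and in SS (0.0263), and, for moDCs against cDC2, Ncoa4 in MI (0.0274) and Slc11a1 (0.0242) and Tfrc (0.0282) in SS. For moDCs minus cDC1, DESeq2 called 2 rather than 1. Leaving out 1 library, the calls ran from 0 to 2 for moDCs minus cDC1, from 1 to 3 for macrophages against moDCs in MI, from 1 to 3 for moDCs minus cDC2 and from 1 to 2 for cDC1 minus cDC2. Upper-quartile factors moved the median of all genes in macrophages to -0.10 (log2), with 396 of 1000 calls up rather than 523 of 963. Summing ferritin copies was not run. Besides Fth1 and Ftl1, the only symbol starting with Fth or Ftl was Fthl17, at 0 reads, and copies under other symbols were not searched for. Low counts limit Blvrb in cDC1 and Slc40a1 in cDC2.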
